A study of Mus musculus with 4 samples.

Results

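Cytosine methylation was described at 10 genes of mouse T cell activation and anergy: Nr4a1, Nr4a2, Nr4a3, Egr2, Egr3, Cblb, Itch, Rnf128, Cd83 and Rgs1. They were chosen by name, as 10 of 49997 genes in a RefSeq table of GRCm38.p6, which is the assembly called mm10. Earlier results of these data were known when they were chosen. Each locus was the RefSeq gene with 5 kb on each side. The deposited table lists 8004 cytosine positions at these loci, of 25374149 in all. At least 5 reads in each of the 4 libraries were found at 1235 of those 8004 positions, against 4795059 positions genome-wide. Fixed windows of 1 kb were tested where they held at least 5 such positions, which gave 89 windows at the 10 loci of 314517 in all.

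The DNA came from CD4+ T cells sorted from the spleen. The mice were NOD, an inbred strain prone to autoimmune diabetes. Mice aged 6 weeks began weekly doses of either OX40L plus Jagged-1 (JAG1) proteins or PBS, which went on for 3 weeks. OX40L binds OX40, a costimulatory receptor on T cells, and Jagged-1 binds Notch receptors. Cells were sorted 1 week after the last dose, at a labelled age of 10 weeks, into CD4+CD25hi regulatory cells (Treg) and CD4+CD25- cells (Teff, as labelled). The groups were OX40L-JAG1 Treg, OX40L-JAG1 Teff, PBS Treg and PBS Teff, with 1 bisulfite library each. The labels do not give the number of mice behind a library. With 1 library per group, every test below compares libraries and not conditions, and there is no replicate check. The design sets Treg against Teff and OX40L-JAG1 against PBS.

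Stimulation of the T cell receptor induces the orphan nuclear receptors of the NR4A family and the zinc finger factors EGR2 and EGR3 within hours. When the signal comes without costimulation, NFAT acting without AP-1 turns on a program that leaves the cell unresponsive, a state called anergy, and EGR2 and EGR3 take part in it. The E3 ubiquitin ligases CBL-B, ITCH and GRAIL (the product of Rnf128) mark signalling proteins for removal or altered traffic and hold activation back. CD83 is a surface protein of activated lymphocytes and dendritic cells, and RGS1 damps chemokine receptor signalling. Methylation of CpG cytosines is usually near absent at CpG-rich promoters and high elsewhere. Regions of lower methylation away from promoters are often regulatory. Bisulfite reads hold no measure of expression, so the genes are named here for these known roles only.

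Of the promoters given, that of Egr2 had the most reads. RefSeq promoters (250 bases before to 50 after a gene start) were given for 6 of the 10 genes, in 10 entries, and not for Egr3, Itch, Cd83 and Rgs1. The following Egr2 entries, 5′ to 3′ on the plus strand of GRCm38.p6, are shown because they are where reads lie on promoter letters. Capitals mark the CpGs with a listed cytosine on at least 1 strand.
Egr2 promoter, chr10:67537316-67537615: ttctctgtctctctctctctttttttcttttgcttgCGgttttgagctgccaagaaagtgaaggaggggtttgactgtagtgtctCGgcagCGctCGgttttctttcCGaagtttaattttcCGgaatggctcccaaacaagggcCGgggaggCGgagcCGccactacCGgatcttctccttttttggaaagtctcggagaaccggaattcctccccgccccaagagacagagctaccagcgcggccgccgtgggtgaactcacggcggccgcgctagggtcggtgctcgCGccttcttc
Egr2 promoter, chr10:67537619-67537918: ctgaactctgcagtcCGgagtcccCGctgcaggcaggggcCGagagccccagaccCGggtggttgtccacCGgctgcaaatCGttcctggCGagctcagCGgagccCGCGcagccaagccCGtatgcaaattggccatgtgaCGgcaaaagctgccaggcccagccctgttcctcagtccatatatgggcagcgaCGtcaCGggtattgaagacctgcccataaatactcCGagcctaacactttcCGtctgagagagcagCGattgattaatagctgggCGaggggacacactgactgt
The first entry holds 24 CpGs, of which 11 had a listed position. Methylated reads there numbered 0 of 6 in OX40L-JAG1 Treg, 1 of 93 in OX40L-JAG1 Teff, 0 of 83 in PBS Treg and 1 of 111 in PBS Teff. The upper bounds of the 95% Wilson intervals were 39.0%, 5.84%, 4.42% and 4.93% in that order of libraries, so these CpGs were read as almost unmethylated wherever depth allowed. The second entry holds 19 CpGs, of which 18 had a listed position. It had 1 methylated read of 83 in OX40L-JAG1 Teff and 0 of 22 in PBS Teff, and no listed position in either Treg library. A count of 0 says little at such depth: the upper bound for PBS Teff was 14.9%. An Egr2 entry further upstream holds 32 CpGs and had no listed position, and 2 more entries overlap the second one. The NFAT core GGAAA, searched on both strands, occurs 3 times in the first entry, and 61.3% of 32851 promoters hold it at least once. The letters TGANTCA (AP-1), TGACGTCA (CRE), AAAGGTCA (NBRE, the NR4A element) and GCGTGGGCG (EGR) are in none of the 10 entries, and are in 7.81%, 1.79%, 1.51% and 0.612% of all promoters.

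The other promoters were almost unread. The Nr4a2 entry holds 52 CpGs and the Nr4a3 entry 26, and neither had a listed position. Nr4a1 had 0 methylated of 14 reads and Cblb 0 of 5, in PBS Teff alone, with upper bounds of 21.5% and 43.4%. Rnf128 had 2 methylated of 10 reads in PBS Teff, or 20% with an upper bound of 51.0%.

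The listed reads numbered 103584075 in OX40L-JAG1 Treg, 159291553 in OX40L-JAG1 Teff, 131555634 in PBS Treg and 208402911 in PBS Teff. The median reads at a position read in all 4 libraries were 9, 11, 10 and 14 in the same order, and the overall levels 82.2%, 81.6%, 84.9% and 85.2%. The median window difference over the genome was -2.82 points in OX40L-JAG1 Teff minus PBS Teff, -2.14 in OX40L-JAG1 Treg minus PBS Treg, -0.158 in PBS Treg minus PBS Teff and 0.435 in OX40L-JAG1 Treg minus OX40L-JAG1 Teff. Differences at single genes stand against these shifts. Among 6 Treg marker genes, 4 (Foxp3, Ikzf2, Ikzf4 and Il2ra) held a window lower in Treg than in Teff in both the OX40L-JAG1 and the PBS pair, against 0.395% and 1.18% of all genes with a tested window. Ikzf2 also held a window lower in OX40L-JAG1 Treg than in PBS Treg, against 0.486% of all genes. No window of 7 B cell genes or of the CD8 T and NK cell genes was called in any of the 4 comparisons, with locus differences of -6.63 to 6.41 points for the B cell genes and -7.14 to 7.40 for the others. Of 6 myeloid genes with a tested window, Spi1 alone held a called one, higher in Treg in both pairs, against 0.408% of all genes in the OX40L-JAG1 pair and 0.889% in the PBS pair. Myeloid locus differences ran from -9.89 to 9.39 points. Of 6 pan T cell genes, Cd3e alone held a called window, higher in OX40L-JAG1 Teff and in PBS Treg than in PBS Teff, against 0.702% and 0.889% of all genes. The loci of these 6 genes differed in both directions, by -10.6 to 20 points. The part of other cells in the results below was not tested.

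A window was called when Fisher's exact test on its methylated and unmethylated reads gave an adjusted p under 0.05 over all 314517 windows and the levels differed by at least 20 points. Most calls at these genes came from Treg and Teff in the PBS pair. PBS Treg minus PBS Teff gave 4 called windows lower (2 in Cblb, 1 each in Cd83 and Rgs1) and 2 higher (both in Nr4a2) of the 89. The backgrounds were 0.165% of all windows lower and 0.115% higher. OX40L-JAG1 Treg minus OX40L-JAG1 Teff gave 1 lower, in Cd83, and none higher, with backgrounds of 0.0588% and 0.0547%. OX40L-JAG1 Teff minus PBS Teff gave 2 lower, in Cblb and Cd83, and none higher, with backgrounds of 0.469% and 0.0881%. OX40L-JAG1 Treg minus PBS Treg gave 1 lower, in Cd83, and none higher, with backgrounds of 0.0811% and 0.0194%. Each library enters 2 of these comparisons, so they are not independent of each other. With the windows shifted by 500 bases, no member window was called lower in OX40L-JAG1 Teff minus PBS Teff.

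Counting calls by the adjusted p of Fisher's exact test alone, with no minimum size, gave 5 windows in OX40L-JAG1 Teff minus PBS Teff, 1 in OX40L-JAG1 Treg minus PBS Treg, 9 in PBS Treg minus PBS Teff and 2 in OX40L-JAG1 Treg minus OX40L-JAG1 Teff. Over all windows these shares were 3.04%, 0.336%, 0.471% and 0.189%. At an unadjusted p under 0.05 the counts were 10, 12, 15 and 12 of 89, against 15.9%, 9.48%, 5.73% and 5.3% of all windows. The median difference over the 89 windows was -1.68, -0.996, -0.594 and -0.428 points in that order of comparisons. Cblb held 36 of the 89 windows and Rnf128 26, so these long genes weigh most in summaries over the 89.

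**Figure D1:**
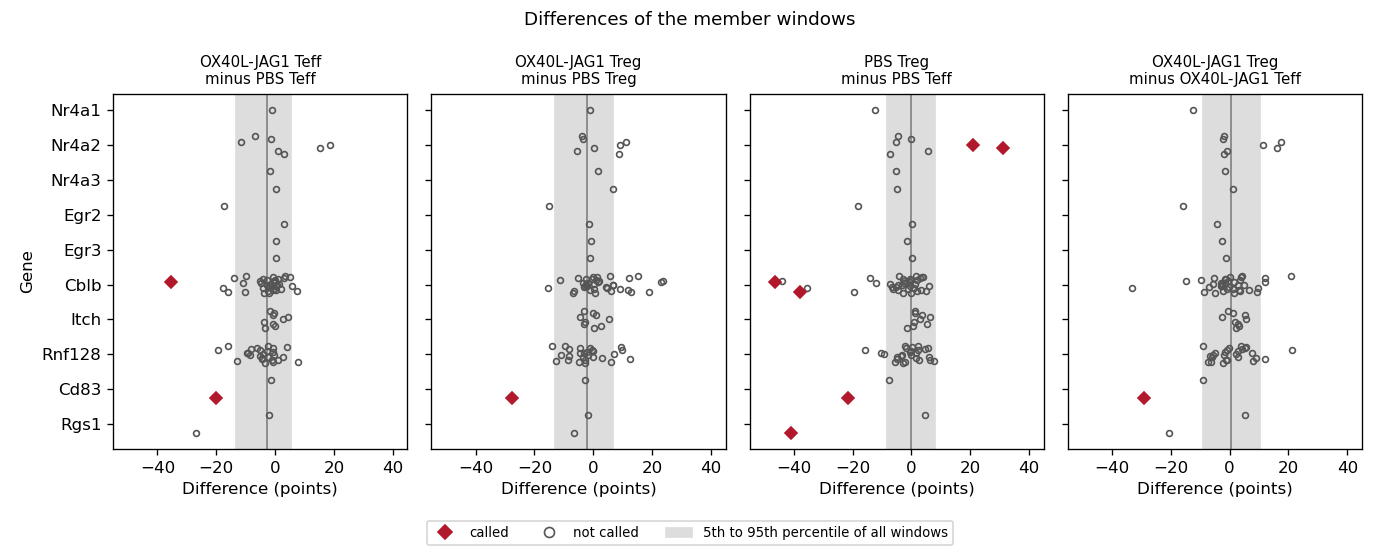
Difference in methylation level (percentage points) of each of the 89 tested windows, by gene, in the 4 comparisons; red diamonds are called windows, open circles are not called, the grey band spans the 5th to 95th percentile of all 314517 windows and the grey line is their median. The called windows sit in Nr4a2, Cblb, Cd83 and Rgs1, while the windows of Itch stay within -4.44 and 6.33 points in every panel.

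**Figure D2:**
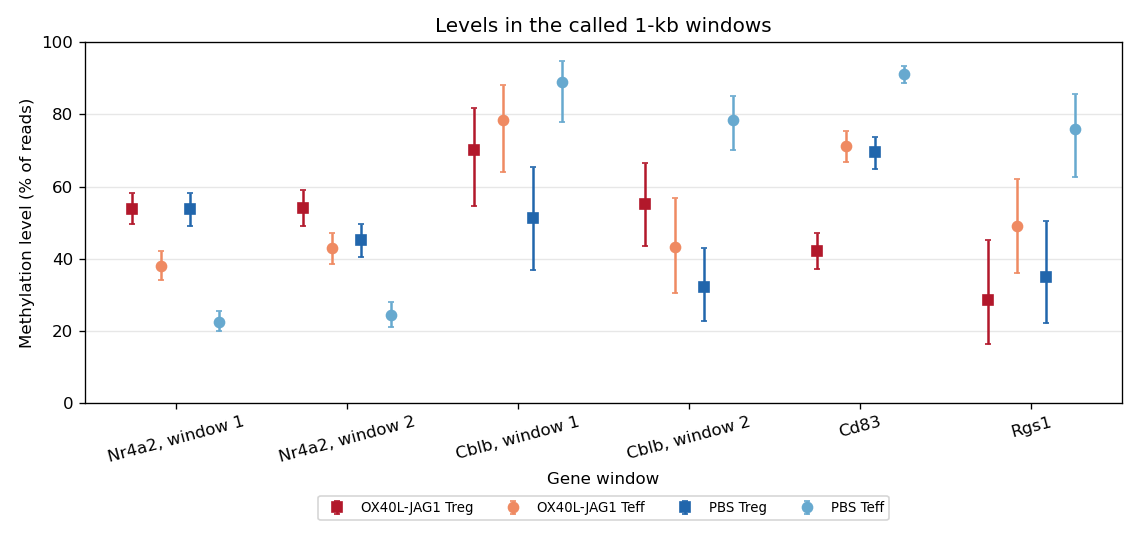
Methylation level (% of reads) of the 6 windows called in at least 1 comparison, with 95% Wilson intervals; squares are Treg, circles Teff, red shades OX40L-JAG1 and blue shades PBS. PBS Teff is the lowest library in both Nr4a2 windows and the highest in the other 4.

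Nr4a2 held the called windows in which PBS Teff had less methylation than every other library. It lies at chr2:57106830-57124003 on the minus strand, with its start at 57124003. In the window at chr2:57110001-57111000, inside the gene and centred 13.5 kb downstream of the start, the level was 53.8% of 509 reads in OX40L-JAG1 Treg, 37.9% of 552 in OX40L-JAG1 Teff, 53.7% of 451 in PBS Treg and 22.5% of 822 in PBS Teff. The Treg libraries were close to each other at this window, and the Teff libraries were both below them. PBS Treg minus PBS Teff was 31.2 points (95% Newcombe interval 25.7 to 36.5; Fisher's exact test, adjusted p = 8.12e-25). OX40L-JAG1 Treg minus OX40L-JAG1 Teff was 16.0 points (9.98 to 21.8; Fisher's adjusted p = 0.000389), and OX40L-JAG1 Teff minus PBS Teff was 15.4 points (10.4 to 20.3; adjusted p = 1.09e-06). Both of these pass the test and miss the size of 20 points. OX40L-JAG1 Treg minus PBS Treg was 0.173 points (-6.12 to 6.47). The interaction, which is the treatment difference in Treg minus that in Teff, was -15.2 points and missed the threshold (Wald test in a binomial logistic model, adjusted p = 0.123).

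The adjoining Nr4a2 window, chr2:57111001-57112000, had 54.1% of 375 reads in OX40L-JAG1 Treg, 42.8% of 495 in OX40L-JAG1 Teff, 45.1% of 455 in PBS Treg and 24.3% of 610 in PBS Teff. PBS Teff was again the lowest. The difference PBS Treg minus PBS Teff was 20.8 points (15.05 to 26.4; Fisher's exact test, adjusted p = 2.38e-09), and OX40L-JAG1 Teff minus PBS Teff was 18.6 points (13.0 to 24.02; adjusted p = 1.29e-07). With the genome-wide median of -2.82 points taken off, OX40L-JAG1 Teff minus PBS Teff passed the size of 20 points too. Both differences lie close to that size. With all read counts divided by 3, the adjusted p of PBS Treg minus PBS Teff in this window was 0.0972, and the call was lost.

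The difference was not confined to 1 cytosine. A read that spans several positions is counted at each, here and in the windows below, so neighbouring positions are not independent. All 11 positions of the first window were higher in PBS Treg than PBS Teff, with differences of 13.1 to 49.3 points, and all 11 were higher in OX40L-JAG1 Teff than in PBS Teff, by 0.686 to 32.4 points. In the second window, 5 of 7 positions were higher in PBS Treg than in PBS Teff. Tested singly over all 4795059 positions, 4 Nr4a2 positions were higher in PBS Treg than in PBS Teff, against a background of 0.00778% of positions higher and 0.00974% lower. For OX40L-JAG1 Teff minus PBS Teff there were 2 such positions, against 0.00315% higher and 0.0336% lower. These backgrounds cover positions of all depths, with medians of 10 to 14 reads in the libraries compared, where few calls can be reached. The 4 positions called in the PBS pair had 31 to 70 reads in PBS Treg and 54 to 116 in PBS Teff. Position 57110691 had 53.1% methylation in OX40L-JAG1 Treg, 27.3% in OX40L-JAG1 Teff, 54.8% in PBS Treg and 5.56% in PBS Teff (Fisher's exact test, PBS Treg minus PBS Teff, adjusted p = 0.00471). Position 57111111 had 34.4%, 23.1%, 25.7% and 1.03% in the same order. It was called in both comparisons with PBS Teff, with Fisher's adjusted p = 0.00462 for PBS Treg and 0.0104 for OX40L-JAG1 Teff.

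Reads piled up at this Nr4a2 stretch. The 2 windows averaged 53.0 and 69.1 reads per position, above 95.7% and 97.8% of all windows. None of the 11 positions in the first window and 1 of the 7 in the second had the cytosine of the other strand listed, whereas 58.8% of all positions read in 4 libraries did. Among the 25260 windows with at least 40 reads per position, 0.162% were called higher and 0.158% lower in PBS Treg minus PBS Teff. The part of depth and strand in the Nr4a2 values was not tested.

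**Figure D3:**
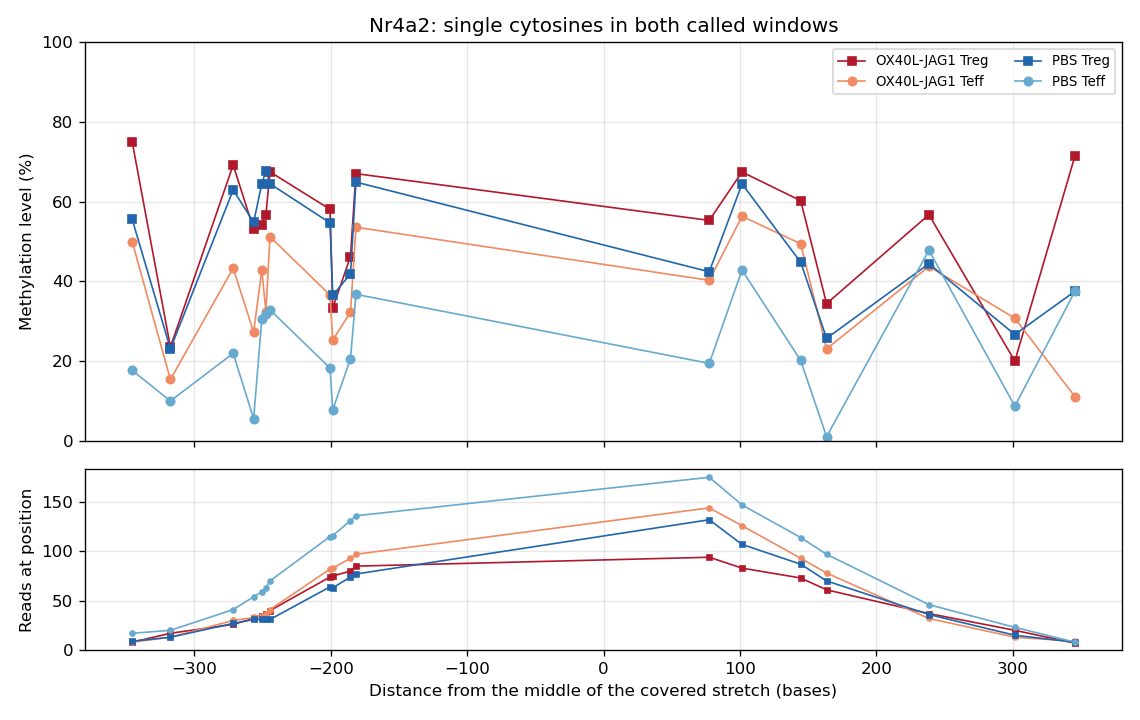
Top, methylation level (%) of the 18 single cytosines in the 2 called Nr4a2 windows by distance in bases from the middle of the stretch; bottom, reads at each cytosine; squares Treg, circles Teff, red shades OX40L-JAG1, blue shades PBS. PBS Teff runs lowest over most of the stretch, down to 1.03%, and every library has most reads near the middle.

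The rest of Nr4a2 held no call. Its other 5 tested windows differed by -11.7 to 17.6 points across the 4 comparisons, and 1 of them, chr2:57122001-57123000, was at 94.9% to 98.5% in all libraries. Over the whole locus the level was 63.7% in OX40L-JAG1 Treg, 54.7% in OX40L-JAG1 Teff, 61.6% in PBS Treg and 44.6% in PBS Teff. The called windows carry most of the reads at that locus, so this order repeats theirs.

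Nr4a1, the best known early response gene of the family (Nur77), had 1 tested window. At chr15:101274001-101275000, near the end of the gene (chr15:101253902-101274795), the level was 70.6% of 309 reads in OX40L-JAG1 Treg, 83.1% of 290 in OX40L-JAG1 Teff, 71.7% of 325 in PBS Treg and 84.0% of 519 in PBS Teff. Over the summed reads, both Treg libraries were below both Teff libraries, opposite to the Nr4a2 stretch. In the PBS pair Treg minus Teff was -12.3 points (-18.2 to -6.58; Fisher's exact test, adjusted p = 0.00854), under the size of 20 points, and OX40L-JAG1 Treg minus OX40L-JAG1 Teff was -12.6 points (-19.1 to -5.80; adjusted p = 0.119). The treatment differences were -0.904 points in Teff and -1.14 in Treg. By position the PBS pair was mixed, with 6 of 13 positions lower in PBS Treg and 4 higher (-33.8 to 14.3 points). The unweighted mean over these positions was 72.1% in PBS Treg and 78.4% in PBS Teff. In the OX40L-JAG1 pair, 9 positions were lower in Treg and 3 higher. The part of how reads fall between positions was not tested. Nr4a3, chr4:48045078-48086447, had 2 tested windows, with levels of 91.0% to 97.9% in the 4 libraries and no call. Its largest difference was 6.61 points, in OX40L-JAG1 Treg minus PBS Treg (-0.723 to 14.6).

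Positions read in only the 2 libraries compared gave more windows. For PBS Treg minus PBS Teff, 226 member windows could then be tested, with 7 called lower and 4 higher, against backgrounds of 0.151% and 0.0812%. The added higher calls were 1 upstream of Nr4a1, chr15:101250001-101251000, with 39.6% of 48 reads in PBS Treg against 8.70% of 69 in PBS Teff (Fisher's adjusted p = 0.0474), and 1 in Nr4a3, chr4:48073001-48074000, with 85.2% of 61 against 53.1% of 64 (adjusted p = 0.0374). PBS Teff was the lower library in each, as in Nr4a2, but on few reads. At the 5 positions that the Teff libraries share in the Nr4a1 window, OX40L-JAG1 Teff had 32.4% of 37 reads against 5.56% of 36 in PBS Teff. At the 7 shared in the Nr4a3 window, OX40L-JAG1 Teff had 65.2% of 46 against 50% of 54 in PBS Teff, and neither difference was called.

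Each EGR gene had a window near 0% methylation. In Egr2, chr10:67534469-67542188, the window chr10:67537001-67538000 was at 0% of 51 reads in OX40L-JAG1 Treg, 4.17% of 72 in OX40L-JAG1 Teff, 1.37% of 73 in PBS Treg and 1.03% of 97 in PBS Teff. In Egr3, chr14:70077317-70082613, the window chr14:70076001-70077000 beside the lower-numbered gene end was at 0.282% of 354 reads, 2.84% of 388, 1.13% of 355 and 2.49% of 602 in the same order. The other Egr3 window, 4.8 kb outside that end, was at 95.6% to 96.9%. No EGR window was called in any comparison, and the differences at the 2 unmethylated windows ran from -4.17 to 3.14 points. The largest in Egr3 was -2.55 points, in OX40L-JAG1 Treg minus OX40L-JAG1 Teff.

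The second Egr2 window, chr10:67547001-67548000, barely belongs to the locus: 1 of its 12 positions lies within the 5 kb flank, and the window is inside the neighbouring gene Ado. It had 43.3% of 97 reads in OX40L-JAG1 Treg, 59.2% of 130 in OX40L-JAG1 Teff, 58.2% of 213 in PBS Treg and 76.5% of 285 in PBS Teff. PBS Teff was the highest and OX40L-JAG1 Treg the lowest. Treg minus Teff was -18.3 points in the PBS pair (Fisher's exact test, adjusted p = 0.00593) and OX40L-JAG1 Teff minus PBS Teff -17.3 points (adjusted p = 0.0241), both under the size of 20 points.

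Among the ubiquitin ligases, calls were found in Cblb. The gene spans chr16:52031230-52208047 and starts at 52031549 on the plus strand. In the window chr16:52146001-52147000, inside the gene and 115 kb downstream of the start, the level was 55.2% of 67 reads in OX40L-JAG1 Treg, 43.1% of 51 in OX40L-JAG1 Teff, 32.1% of 78 in PBS Treg and 78.6% of 112 in PBS Teff. PBS Teff was high, PBS Treg low and both OX40L-JAG1 libraries between them. PBS Treg minus PBS Teff was -46.5 points (-57.9 to -32.6; Fisher's exact test, adjusted p = 1.64e-07) and OX40L-JAG1 Teff minus PBS Teff -35.4 points (-49.7 to -19.4; adjusted p = 0.00220). In Treg the treatment difference had the other sign, at 23.2 points (7.00 to 37.8; Fisher's adjusted p = 0.264), and did not pass. OX40L-JAG1 Treg minus OX40L-JAG1 Teff was 12.1 points (-5.96 to 29.0).

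This Cblb window was the only 1 of the 89 with a called interaction, at 58.6 points (Wald test in a binomial logistic model, adjusted p = 0.00710), against a background of 0.0108% of all windows. All 7 of its positions were lower in PBS Treg than PBS Teff, and all 7 were lower in OX40L-JAG1 Teff than in PBS Teff. For OX40L-JAG1 Treg minus PBS Treg, 4 positions were higher and 3 lower. The values rest on 5 to 26 reads per position. With read counts divided by 3, none of its calls stayed: Fisher's adjusted p was 0.315 for PBS Treg minus PBS Teff and the Wald test's adjusted value was 1 for the interaction. With windows shifted by 500 bases, no member window had a called interaction. At a minimum of 10 reads this window held too few positions to be tested.

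A second Cblb window, chr16:52039001-52040000, 7.95 kb downstream of the start, had 70.0% of 40 reads in OX40L-JAG1 Treg, 78.6% of 42 in OX40L-JAG1 Teff, 51.2% of 43 in PBS Treg and 88.9% of 54 in PBS Teff. PBS Treg was the lowest. In the PBS pair Treg minus Teff was -37.7 points (-53.3 to -19.7; Fisher's exact test, adjusted p = 0.0186), with all 6 positions lower in PBS Treg. The window was shallow, its mean reads per position exceeding those of 4.34% of all windows. The call was lost with read counts divided by 3 (Fisher's adjusted p = 1). Windows of large difference that were not called include chr16:52067001-52068000, at 27.5% of 51 reads in OX40L-JAG1 Treg, 60.5% of 38 in OX40L-JAG1 Teff, 42.9% of 49 in PBS Treg and 78.3% of 46 in PBS Teff. Both Treg libraries were below both Teff libraries there (PBS Treg minus PBS Teff, Fisher's adjusted p = 0.113).

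With positions read in only the 2 libraries compared, Cblb had 5 of 94 tested windows lower in PBS Treg than PBS Teff: the 2 called above and chr16:52038001-52039000, chr16:52067001-52068000 and chr16:52147001-52148000, with differences of -31.1, -40.1 and -30.0 points. For OX40L-JAG1 Teff minus PBS Teff, 4 of 308 member windows were lower, against a background of 0.361% lower. The added calls were chr16:52060001-52061000 in Cblb, with 8.16% of 98 reads in OX40L-JAG1 Teff against 45% of 120 in PBS Teff (-36.8 points, Fisher's adjusted p = 1.48e-06), and chrX:139646001-139647000 in Rnf128, with 64.7% of 85 against 86.0% of 129 (-21.3 points, adjusted p = 0.0381). At the 13 positions that PBS Treg and PBS Teff share in that Cblb window, the levels were 8.22% of 73 reads in PBS Treg and 19.6% of 92 in PBS Teff, a difference of -11.3 points that was not called (Fisher's adjusted p = 0.988).

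**Figure D4:**
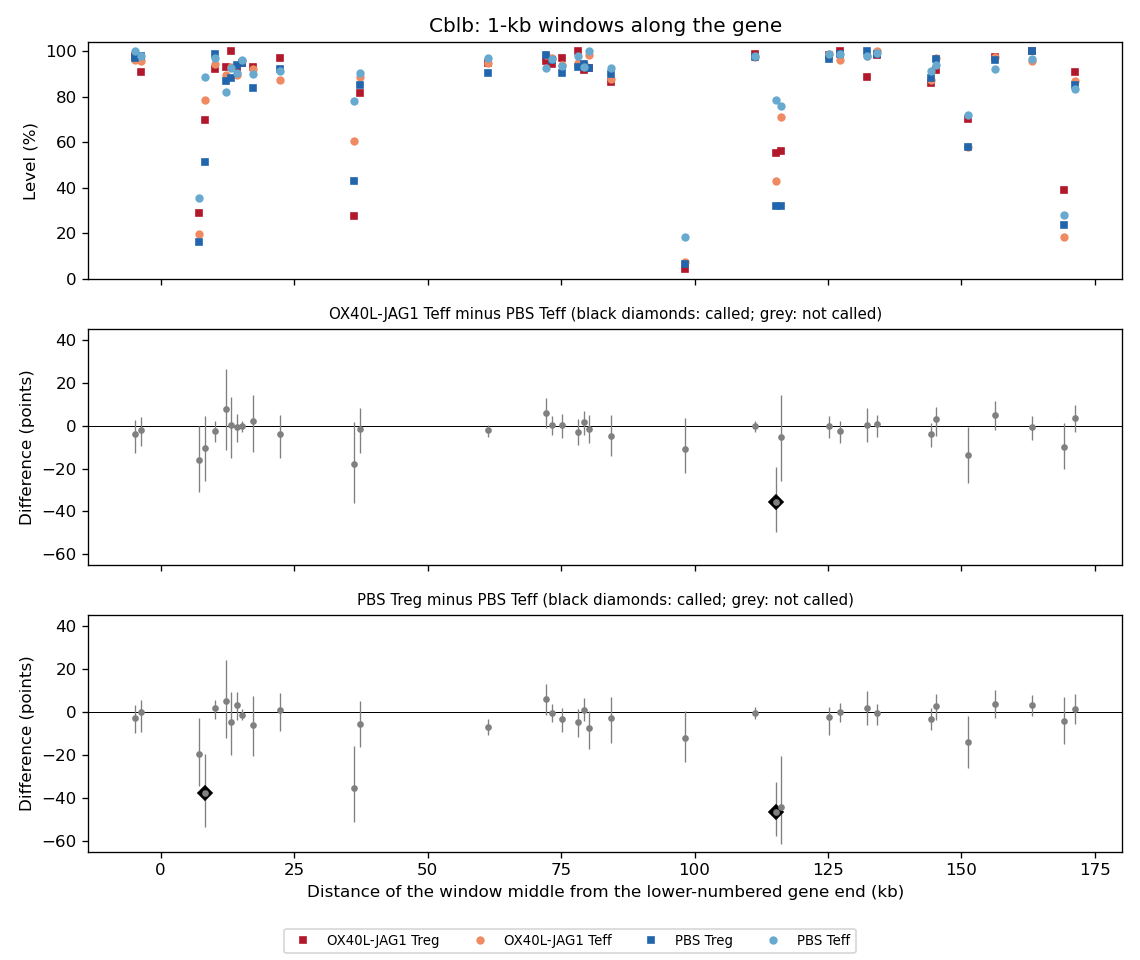
Top, methylation level (%) of the 36 tested Cblb windows by distance in kb from the lower-numbered gene end, for the 4 libraries; below, the differences OX40L-JAG1 Teff minus PBS Teff and PBS Treg minus PBS Teff in points with 95% Newcombe intervals, black diamonds marking called windows. Most windows lie high and near 0 difference; called windows lie 115 kb in (both comparisons) and 8.27 kb in (PBS Treg minus PBS Teff).

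Most of Cblb was highly methylated in every library. Its locus level was 89.9% in OX40L-JAG1 Treg, 89.4% in OX40L-JAG1 Teff, 88.2% in PBS Treg and 91.0% in PBS Teff. The median difference over its 36 windows was -1.64 points in OX40L-JAG1 Teff minus PBS Teff, 0.820 in OX40L-JAG1 Treg minus PBS Treg, -2.53 in PBS Treg minus PBS Teff and -0.226 in OX40L-JAG1 Treg minus OX40L-JAG1 Teff. A window of low level far inside the gene, chr16:52129001-52130000, was at 4.44%, 7.50%, 6.25% and 18.4% in OX40L-JAG1 Treg, OX40L-JAG1 Teff, PBS Treg and PBS Teff, with no call.

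Itch, chr2:155133481-155226855, held 9 tested windows and no call in any comparison, with differences of -4.44 to 6.33 points. The window at its lower-numbered end, chr2:155133001-155134000, was at 6.10% of 295 reads in OX40L-JAG1 Treg, 3.89% of 514 in OX40L-JAG1 Teff, 5.84% of 411 in PBS Treg and 7.42% of 512 in PBS Teff. The other 8 were at 51.9% to 100%. At the low window OX40L-JAG1 Teff minus PBS Teff was -3.53 points (-6.47 to -0.695; Fisher's exact test, adjusted p = 0.173). Among the members with more than 2 tested windows, Itch had the narrowest range of window differences.

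Rnf128, chrX:139563340-139673145, held 26 tested windows and no call. Its locus level was 82.3% of 4020 reads in OX40L-JAG1 Treg, 82.0% of 5240 in OX40L-JAG1 Teff, 87.2% of 4788 in PBS Treg and 86.8% of 6646 in PBS Teff. Both OX40L-JAG1 libraries lay below both PBS libraries, by -4.76 points in Teff (-6.08 to -3.44) and -4.91 in Treg (-6.43 to -3.40). The medians over all genes were -3.13 and -2.27 points for these comparisons, in the same direction. Its largest window differences were -19.4 points in OX40L-JAG1 Teff minus PBS Teff (Fisher's adjusted p = 0.221), -14.1 in OX40L-JAG1 Treg minus PBS Treg (0.485), -15.9 in PBS Treg minus PBS Teff (0.574) and 21.3 in OX40L-JAG1 Treg minus OX40L-JAG1 Teff (0.845).

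Cd83 held the single member window that was called in all 4 comparisons. The share of all windows called in all 4 was not counted, so this has no background beside it. The comparisons share libraries and are not independent. The window is chr13:43787001-43788000, centred 2.39 kb inside the lower-numbered end of the gene (chr13:43785112-43803133). The level was 42.0% of 383 reads in OX40L-JAG1 Treg, 71.3% of 446 in OX40L-JAG1 Teff, 69.6% of 411 in PBS Treg and 91.3% of 564 in PBS Teff. The library that was both Treg and OX40L-JAG1 was the lowest, the library that was neither was the highest, and the other two were close to each other. Treg minus Teff was -29.3 points in the OX40L-JAG1 pair (-35.5 to -22.6; Fisher's exact test, adjusted p = 2.34e-13) and -21.7 in the PBS pair (-26.8 to -16.7; adjusted p = 1.32e-14). OX40L-JAG1 minus PBS was -27.5 points in Treg (-34.0 to -20.7; Fisher's adjusted p = 3.46e-10) and -20.01 in Teff (-24.8 to -15.2; adjusted p = 6.76e-13).

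Each of the 10 cytosines in this Cd83 window was lower in every 1 of the 4 comparisons. These cytosines make up 8 CpGs once strands are summed, and 1 read can be counted at several of them. The differences ran from -60.0 to -9.12 points in PBS Treg minus PBS Teff and from -35.1 to -5.00 in OX40L-JAG1 Treg minus PBS Treg. Position 43787240 had 41.3% methylation in OX40L-JAG1 Treg, 70.4% in OX40L-JAG1 Teff, 76.2% in PBS Treg and 95.5% in PBS Teff. It was called singly in OX40L-JAG1 Teff minus PBS Teff (Fisher's exact test, adjusted p = 0.0442). The interaction over the window was -7.54 points (Wald test in a binomial logistic model, adjusted p = 0.981), which does not show that the treatment differences of Teff and Treg are equal.

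The Teff treatment call in Cd83 sits on the threshold of size. With the genome-wide median taken off it was -17.2 points and no longer called, and the Treg treatment call was lost with read counts divided by 3 (Fisher's adjusted p = 0.808). The window averaged 45.1 reads per position, above 93.8% of all windows. Among windows of at least 40 reads per position, the called lower share was 0.182% in OX40L-JAG1 Teff minus PBS Teff and 0.0713% in OX40L-JAG1 Treg minus PBS Treg. The other tested Cd83 window, chr13:43793001-43794000, had 84.4%, 93.4%, 87.3% and 94.9% in OX40L-JAG1 Treg, OX40L-JAG1 Teff, PBS Treg and PBS Teff, with no call.

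**Figure D5:**
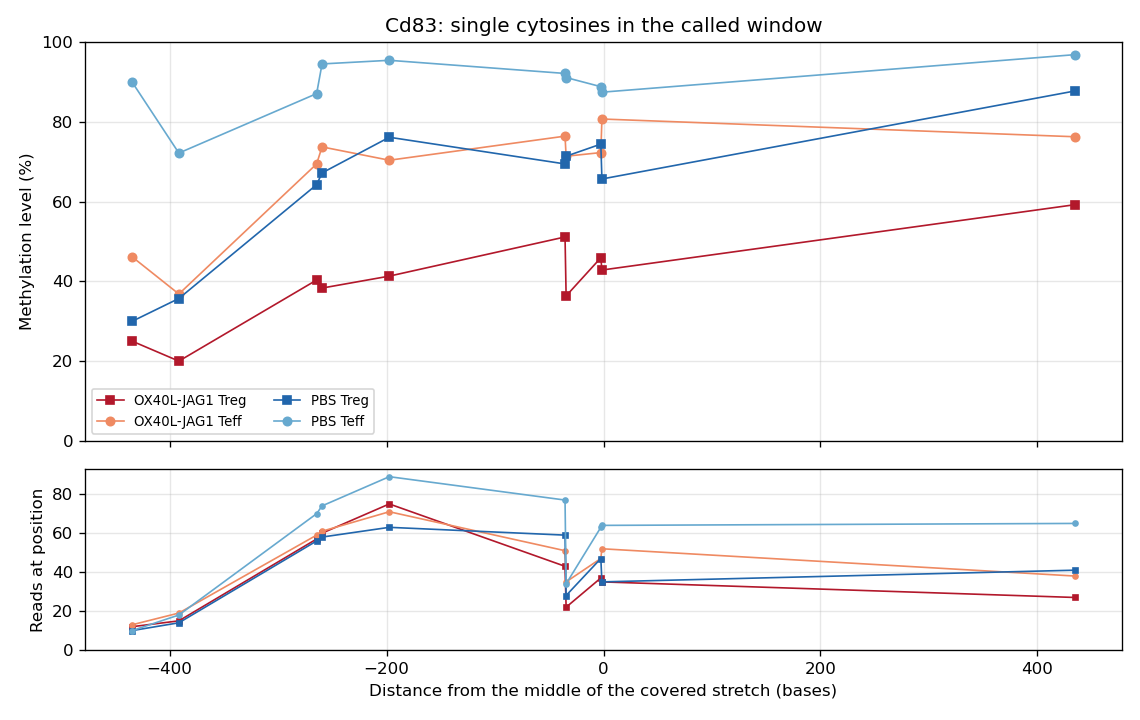
Top, methylation level (%) of the 10 single cytosines in the called Cd83 window by distance in bases from the middle of the stretch; bottom, reads at each cytosine; squares Treg, circles Teff, red shades OX40L-JAG1, blue shades PBS. OX40L-JAG1 Treg is lowest and PBS Teff highest at every cytosine.

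Rgs1, chr1:144244669-144249104, was lower in PBS Treg than PBS Teff in a window inside the gene. At chr1:144247001-144248000 the level was 28.6% of 35 reads in OX40L-JAG1 Treg, 49.1% of 53 in OX40L-JAG1 Teff, 35.0% of 40 in PBS Treg and 76.0% of 50 in PBS Teff. PBS Treg minus PBS Teff was -41.0 points (-57.1 to -20.5; Fisher's exact test, adjusted p = 0.0277). OX40L-JAG1 Teff minus PBS Teff was -26.9 points (-43.1 to -8.22; Fisher's adjusted p = 0.123) and OX40L-JAG1 Treg minus OX40L-JAG1 Teff -20.5 points (-38.4 to 0.466), neither of them called. The call was lost with read counts divided by 3 (Fisher's adjusted p = 1).

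Of the 5 positions in that Rgs1 window, 1 had no methylated read in any library. NOD mice differ in sequence from the mm10 strain, and a CpG lost in NOD would also read as unmethylated, which was not tested. Without that position the levels were 34.5% in OX40L-JAG1 Treg, 60.5% in OX40L-JAG1 Teff, 41.2% in PBS Treg and 90.5% in PBS Teff, with 4 positions left, under the minimum for a test. A single cytosine in the flank, at position 144251641, had 40% of 25 reads in OX40L-JAG1 Treg, 85.3% of 34 in OX40L-JAG1 Teff, 29.8% of 47 in PBS Treg and 89.8% of 59 in PBS Teff. Both Treg libraries were below both Teff libraries. The difference PBS Treg minus PBS Teff was -60.0 points (-72.4 to -42.5; Fisher's exact test, adjusted p = 4.61e-06), while OX40L-JAG1 Treg minus OX40L-JAG1 Teff was -45.3 points (-63.8 to -20.6) and did not pass the test over all positions (adjusted p = 1).

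Over whole loci, the 10 genes ranged in PBS Teff from 22.9% at Egr3 to 92.9% at Cd83. The median difference of the 10 loci was -1.68 points in OX40L-JAG1 Teff minus PBS Teff (range -13.9 to 15.1), against -3.13 over all genes. It was 0.175 in OX40L-JAG1 Treg minus PBS Treg (-20.5 to 8.32), against -2.27. It was -1.33 in PBS Treg minus PBS Teff (-16.1 to 17), against -0.303, and -2.32 in OX40L-JAG1 Treg minus OX40L-JAG1 Teff (-22.6 to 8.97), against 0.548. Cd83 gave the lowest value in all 4, and Nr4a2 the highest in both Treg minus Teff comparisons. At both loci the called windows carry most of the reads, so these values largely repeat theirs. The called Cd83 window held 383 of 584 locus reads in OX40L-JAG1 Treg and 446 of 751 in OX40L-JAG1 Teff. It held 411 of 660 in PBS Treg and 564 of 886 in PBS Teff. The OX40L-JAG1 Treg minus PBS Treg median turned to -0.545 with positions read in only the 2 libraries compared. The Egr2 locus, with 17 positions, differed by 15.1 points in OX40L-JAG1 Teff minus PBS Teff (4.89 to 24.8) and 8.32 in OX40L-JAG1 Treg minus PBS Treg (-3.25 to 19.6). Without the window near 0% methylation, a split chosen after seeing the data, these differences were 9.08 points (0.401 to 18.3) and 2.33 points (-7.27 to 12.0). A locus level mixes unmethylated and methylated stretches, and the part of how reads fall between them was not tested.

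By level, 61 of the 89 windows were at 80% or more in OX40L-JAG1 Treg, 63 in OX40L-JAG1 Teff, 64 in PBS Treg and 68 in PBS Teff. Over the genome these shares were 72.8%, 71.5%, 80.1% and 80.9%, and the member shares were 68.5%, 70.8%, 71.9% and 76.4%. Windows under 20% numbered 4, 6, 5 and 4 in the same order of libraries, or 4.49%, 6.74%, 5.62% and 4.49% of the 89, against 1.44%, 1.45%, 1.44% and 1.48% of all windows. The high class was smaller in the OX40L-JAG1 libraries than in the PBS libraries, at the members and over the genome.

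Other genes of T cell activation and anergy were described in the same way, by genes with at least 1 called window. These lists too were chosen with earlier results of these data known, so their counts are not independent of the data. Over all 39723 genes with a tested window, 2.61% had a lower and 0.702% a higher window in OX40L-JAG1 Teff minus PBS Teff. The shares were 0.486% and 0.164% in OX40L-JAG1 Treg minus PBS Treg, 1.18% and 0.889% in PBS Treg minus PBS Teff, and 0.395% and 0.408% in OX40L-JAG1 Treg minus OX40L-JAG1 Teff. Of 24 activation genes, 16 had a tested window. In PBS Treg minus PBS Teff, 4 of the 16 held a lower window and none a higher one. Nfatc1, an NFAT factor that is itself induced by activation, had a window at 2.70% of 37 reads in PBS Treg against 72.7% of 33 in PBS Teff (-70.0 points; Fisher's exact test, adjusted p = 2.67e-07). Tnfrsf9, which encodes the costimulatory receptor 4-1BB, had 48.3% of 29 against 94.8% of 58 (-46.6 points; Fisher's adjusted p = 0.000659). Irf4, a transcription factor induced by antigen receptor signals, differed by -42.0 points (Fisher's adjusted p = 0.0176), and Il2ra, which encodes the sorted marker CD25, by -30.7 points (adjusted p = 0.000248).

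In OX40L-JAG1 Teff minus PBS Teff, 2 of the 16 activation genes held a lower window and none a higher one. They were Nfatc1 at the same window, with 25% of 36 reads in OX40L-JAG1 Teff against 72.7% of 33 in PBS Teff (-47.7 points; Fisher's exact test, adjusted p = 0.00901), and Irf4, with 31.1% of 45 against 76.4% of 72 (-45.3 points; adjusted p = 0.000609). These windows share the PBS Teff values with the comparison of PBS Treg. No activation gene was called in OX40L-JAG1 Treg minus PBS Treg, and Il2ra alone in OX40L-JAG1 Treg minus OX40L-JAG1 Teff (-49.1 points, Fisher's adjusted p = 1.14e-07). All 20 anergy genes had a tested window. Of these, 2 held a lower window in OX40L-JAG1 Teff minus PBS Teff: Ptpn22, a phosphatase that restrains T cell receptor signalling, with 50% of 220 reads against 85.4% of 233 (-35.4 points; Fisher's adjusted p = 1.94e-12), and Peli1, a ubiquitin ligase that limits T cell activation, with 60.2% of 123 against 83.0% of 176 (-22.8 points; adjusted p = 0.00264). Ikzf1, which encodes Ikaros, was higher in OX40L-JAG1 Treg than in OX40L-JAG1 Teff (65.6% of 32 reads against 14.3% of 28, 51.3 points; Fisher's adjusted p = 0.0396). No anergy gene was called in either other comparison, PBS Treg minus PBS Teff or OX40L-JAG1 Treg minus PBS Treg.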

How the data were processed

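Genomic DNA of 4 groups, 1 library each, was sequenced after bisulfite conversion. Trimmomatic, Bismark and the build mm10 were used, per the submitters' processing notes. The sources used here do not give versions, settings or whether duplicates were removed. Per the file headers, the deposited table gives read counts and methylated read counts per site. It also gives a level headed as percent, which the authors deposited as a fraction from 0 to 1. The headers do not name a strand, and positions listed on adjoining bases were taken as the strands of a CpG. The smallest nonzero count is 5, so listed reads are not the full depth, and levels here are methylated counts over counts.

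Positions read at least 5 times in every library made up 18.9% of the table and were kept, without the mitochondrial genome. Read positions are 1-based: 99.99% of 233192 listed positions in RefSeq promoters fell on a CpG. Reads were summed in 1 kb windows with at least 5 kept positions. Fisher's exact test was two-sided with Benjamini-Hochberg adjustment over the genome, and the interaction was a Wald test in a binomial logistic model, after adding 0.5 to each cell of reads. Wilson and Newcombe intervals (95%) cover counting error only. A read that spans several positions is counted at each, so counts are not independent molecules. Gene bounds came from RefSeq (GRCm38.p6), with no exons, so exon and intron were not told apart.

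All 10 members and every called window of theirs were described. For a member with no call, the largest difference is given. List genes were named where called, up to 5 per comparison. The members and lists were chosen with earlier results of these data known. Alternatives were a minimum of 10 reads, positions covered in the 2 libraries compared, windows shifted by 500 bases, counts divided by 3, strands summed, and centring on the genome-wide median. The code was tested on simulated data. Python 3.11.15, numpy 2.4.6, pandas 2.3.3, SciPy 1.17.1, numba 0.67.0 and matplotlib 3.10.9 were used.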

Additional observations from a re-analysis of the deposited data

Results flagged for a closer look

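The Cblb window at chr16:52146001-52147000 stands out because the treatment differences of Treg and Teff differed by the test of the difference itself. OX40L-JAG1 minus PBS was 23.2 points in Treg and -35.4 points in Teff, an interaction of 58.6 points (Wald test in a binomial logistic model over 4 libraries, adjusted p = 0.00710). The test compares libraries, with 1 per group. No member window had a called interaction with read counts divided by 3 or with windows shifted by 500 bases. At a minimum of 10 reads this Cblb window held too few positions to be tested.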

How the results depend on the processing

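Counts of called windows are given here against the main values of 2 lower in OX40L-JAG1 Teff minus PBS Teff, 1 lower in OX40L-JAG1 Treg minus PBS Treg, 4 lower and 2 higher in PBS Treg minus PBS Teff, and 1 interaction. A minimum of 10 reads left 1 lower in OX40L-JAG1 Teff minus PBS Teff, 1 lower in PBS Treg minus PBS Teff and 0 interactions among 19 member windows tested, with the called Cblb and Rgs1 windows not testable. Positions covered in the 2 libraries compared gave 4 lower of 308 member windows in OX40L-JAG1 Teff minus PBS Teff. They gave 7 lower and 4 higher of 226 in PBS Treg minus PBS Teff. Over all windows the shares were 0.361% lower for the former, and 0.151% lower and 0.0812% higher for the latter. That setting turned the median locus difference of OX40L-JAG1 Treg minus PBS Treg to -0.545 points. The cause was not tested. Shifting the windows by 500 bases gave 0 lower in OX40L-JAG1 Teff minus PBS Teff, 1 higher in PBS Treg minus PBS Teff and 0 interactions. Dividing the counts by 3 gave 1 lower in OX40L-JAG1 Teff minus PBS Teff, 0 in OX40L-JAG1 Treg minus PBS Treg, 1 lower and 1 higher in PBS Treg minus PBS Teff and 0 interactions. Shifting and dividing each left 89 member windows tested. Summing strands gave 7 lower in PBS Treg minus PBS Teff among 112 member windows tested. Apart from the positions covered in 2 libraries, shares over all windows are not given for the alternatives, so those counts have no background beside them. Centring gave 1 lower and 1 higher in OX40L-JAG1 Teff minus PBS Teff. The remaining 46 such values did not change sign and stayed within 1.5 times the main count, or within the counting interval for a median. Counts of 0 that stayed 0 are among them and have no direction. The medians still moved. At a minimum of 10 reads, with 9 loci, PBS Treg minus PBS Teff was -0.267 points against -1.33. OX40L-JAG1 Teff minus PBS Teff was -0.787 against -1.68. OX40L-JAG1 Treg minus OX40L-JAG1 Teff was -1.86 against -2.32, and OX40L-JAG1 Treg minus PBS Treg 0.668 against 0.175. No paired analysis was possible because each group has 1 library and the labels carry no replicate numbers that tie libraries together. Leaving out a replicate was not possible for the same reason. Read depth per position limits the single cytosines, and the promoters of most members were hardly read.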
